A study of Mus musculus with 18 samples.

Results

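Guide e21.1, a guide RNA against Jmjd1c, was compared with a control guide against Renilla luciferase in cultured mouse leukaemia cells, 3 libraries a group, or 6 of the 18 libraries in the series. All cells carried the MLL-AF9 fusion oncogene and Cas9. They derived from a mouse leukaemia described as primary, and interleukin-3 of the mouse was in the medium. This also holds for the mock libraries and for 3 other guides against Jmjd1c (e12.3, e12.4 and e20.1), each with 3 libraries, which served only for reference. The guides were directed at the jumonji and zinc finger regions of Jmjd1c. The labels do not give the region that e21.1 cuts, what mock cells received, or whether the 3 libraries of a group came from separate cultures, so p-values measure the spread between libraries, which may be technical. Gene levels were read as FPKM, which are fragment numbers scaled by transcript length and library size. Testing was limited to the 11550 of 23899 genes whose 18 libraries averaged 1 FPKM or more.

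MLL-AF9 joins the DNA-binding part of the chromatin regulator MLL to AF9, which recruits transcription elongation factors. The fusion keeps homeobox genes such as Hoxa9 and Meis1 active and holds myeloid progenitors in an immature, dividing state. Jmjd1c belongs to the KDM3 family of jumonji proteins, which are known for acting on methylated histone H3 lysine 9. Normal progenitors of this lineage mature along either a monocyte route, marked by lysosomal enzymes, Fc receptors and the CSF1 receptor, or a granulocyte route, marked first by primary granule proteins such as myeloperoxidase and later by secondary granule proteins.

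Jmjd1c mRNA itself (GRCm38 chr10:67096125-67256326, plus strand) stood at 64.2, 85.4 and 85.4 FPKM in the Renilla libraries and at 62.4, 73.2 and 68.0 FPKM in the e21.1 libraries. The 2 groups overlapped. The log2 fold change was -0.19 (SE 0.17), with limma's adjusted p at 0.52 and an exact two-sided permutation p of 0.3, where 20 arrangements allow no p below 0.1. With array quality weights the value was -0.30 and passed limma's threshold (adjusted p = 0.042). Cas9 edits need not lower the mRNA of the cut gene, so this level does not check the labels. Of identity genes, Ptprc (the pan-leukocyte antigen CD45) read 69.4, 76.4 and 78.9 FPKM in Renilla and 99.7, 107 and 103 FPKM in e21.1. Its log2 fold change was 0.46 and passed limma's threshold (adjusted p = 0.014, and 0.038 without e21.1 replicate 3). Spi1 (the myeloid factor PU.1) lay between 161 and 184 FPKM in these 6 libraries.

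Replicate 3 of e21.1 stood apart from its group. In it 705 genes (6.1% of those tested) lay at least 2-fold from the mean of the other e21.1 libraries, against 248 and 193 genes for replicates 1 and 2 and 131 to 292 for the Renilla libraries. Replicate 3 of e12.3 stood out in the same measure, with 624 genes. Estimated depth was 31.9, 43.4 and 75.0 M reads in e21.1 replicates 1, 2 and 3 and 30.6 to 38.5 M reads in the Renilla libraries, so replicate 3 was also the deepest of the 6. Counts for e21.1 against Renilla, and the values that depend on it, are therefore also given without replicate 3.

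Guide e21.1 moved many more genes up than down. By limma on log2(FPKM + 1), 1098 genes (9.51% of those tested) passed an adjusted p of 0.05 and are called changed here. Of these, 815 (7.06%) were higher and 283 (2.45%) lower than in Renilla, and the fold was at least 2 in 274 genes called higher and in 15 called lower. The median log2 fold change over all tested genes was -0.02, and it was 0.79 among the called higher genes and -0.47 among the called lower ones. These values are on the log2(FPKM + 1) scale, which understates the change of genes at low FPKM.

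Fewer of the lower than of the higher genes stayed called when a library was left out. Without e21.1 replicate 3, 798 genes (6.91%) were called, 653 higher (5.65%) and 145 lower (1.26%), and 595 of the 815 higher but only 113 of the 283 lower genes were in both sets. Without replicate 3 of both e21.1 and e12.3, 1243 genes were called, 901 higher and 342 lower, so the lower count was then above 283. Leaving out only Renilla replicate 1 left 139 lower genes and leaving out only Renilla replicate 2 left 167. In all 6 fits that each left out 1 library, 504 higher and 74 lower genes stayed called. A fit to these 6 libraries alone, with fewer degrees of freedom for the spread, called 312 higher and 20 lower genes. Of the genes called without replicate 3, that library lay above the Renilla mean in 635 of 653 higher genes and below it in 140 of 145 lower genes. The same Renilla libraries had made those calls, so this is a description and not an independent check. The share over all tested genes is not given.

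**Figure D1:**
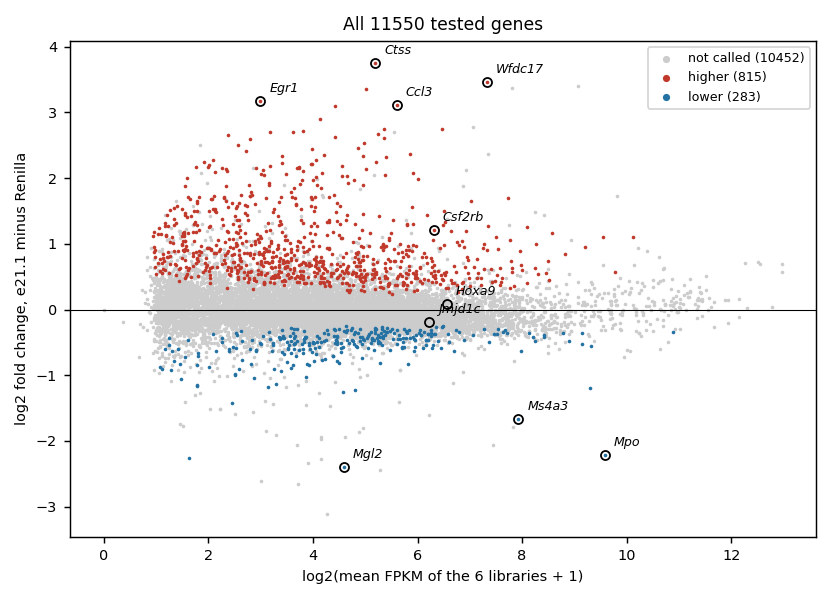
Each point is 1 of the 11550 tested genes, with the log2 of its mean FPKM plus 1 over the 3 Renilla and 3 e21.1 libraries on the horizontal axis and the log2 fold change of e21.1 minus Renilla on the vertical axis. Red points (815) were called higher and blue points (283) lower, most of the large changes point upward, and Mpo, Ms4a3 and Mgl2 lie lowest among the circled genes.

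The libraries of the 2 groups did not overlap for 1089 of the called genes, where 2924 of all tested genes (25.3%) had no overlap. Against mock, which shares the e21.1 libraries, replicate 3 included, with the first comparison, limma called 839 genes (7.26%), 683 higher (5.91%) and 156 lower (1.35%). Of the genes called against Renilla, 631 higher and 129 lower genes were also called in the same direction against mock, and 0 in the opposite one. Between Renilla and mock themselves limma called 0 genes, with 127 at an unadjusted p under 0.05, where 578 are expected with no change.

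The named genes were chosen among those whose groups did not overlap, so a gap between the groups is part of the choice. Cathepsin S had the largest log2 fold change of the named genes that rose. Ctss (chr3:95526786-95556403, plus strand), a lysosomal protease of antigen-presenting cells, read 4.97, 3.57 and 3.58 FPKM in Renilla and 69.0, 54.9 and 76.6 FPKM in e21.1. All 3 e21.1 libraries stood far above all 3 controls, and replicate 3 was the highest. The log2 fold change was 3.75 (SE 0.21, limma adjusted p = 9.9e-08), and 3.64 without replicate 3. Lsp1 (chr7:142460809-142494867, plus strand), an actin-binding protein of leukocytes, gave 3.98, 5.19 and 4.94 FPKM in Renilla and 48.5, 52.8 and 72.3 FPKM in e21.1, a log2 fold change of 3.35 (3.18 without replicate 3). Wfdc17 (chr11:83703991-83706268, plus strand), a small secreted protein with a whey acidic domain, stood at 26.7, 24.0 and 25.2 FPKM in Renilla against 344, 328 and 210 FPKM in e21.1, a log2 fold change of 3.46 (3.68 without replicate 3). Here replicate 3 was the lowest e21.1 library, still well clear of the controls.

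The immediate-early transcription factor Egr1 was near the floor in controls, at 0.664, 0.335 and 0.700 FPKM, and reached 12.42, 10.1 and 17.6 FPKM in e21.1 (log2 fold change 3.17, SE 0.25, and 2.97 without replicate 3). By the ratio of mean FPKM, Egr1 rose 23.6-fold and Ctss 16.5-fold. Fos, another immediate-early factor and a part of AP-1, stood at 1.71, 1.61 and 2.73 FPKM in Renilla and at 11.8, 14.7 and 34.8 FPKM in e21.1 (2.70, SE 0.35, and 2.25 without replicate 3). Both genes were highest in replicate 3. The chemokine gene Ccl3 (chr11:83647844-83649355, minus strand) rose from 5.98, 9.91 and 12.1 FPKM to 77.7, 90.9 and 89.4 FPKM (3.12, SE 0.24, and 3.09 without replicate 3). Dhrs3, a retinaldehyde reductase, rose from 0.718, 0.993 and 1.28 FPKM to 10.9, 10.5 and 11.4 FPKM (2.59, SE 0.16).

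The size of some rises depended on replicate 3 although the call did not. Tpm4, a tropomyosin of the actin cytoskeleton, read 7.47, 9.38 and 28.3 FPKM in e21.1 against 0.970 to 1.19 FPKM in Renilla, so that its log2 fold change of 2.71 fell to 2.16 without replicate 3. Nov, which encodes the matricellular protein CCN3, read 51.1, 51.9 and 108 FPKM against 8.16 to 11.6 FPKM (2.61, and 2.26 without replicate 3). Serpina3g, a serine protease inhibitor, went the other way, with 92.0, 80.1 and 25.1 FPKM in e21.1 against 7.53 to 9.30 FPKM in Renilla (2.67, limma adjusted p = 0.0036, and 3.25 without replicate 3). Slfn2, a Schlafen-family regulator of lymphoid and myeloid quiescence, rose by 2.62 on the log2 scale, and replicate 3 was again the lowest e21.1 library at 27.9 FPKM. The remaining named rises, Lilra6, Lilr4b, Lilrb4a and Pira2, belong to the receptors described further on. All 15 named higher genes stayed called in all 6 fits that left out a library.

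**Figure D2:**
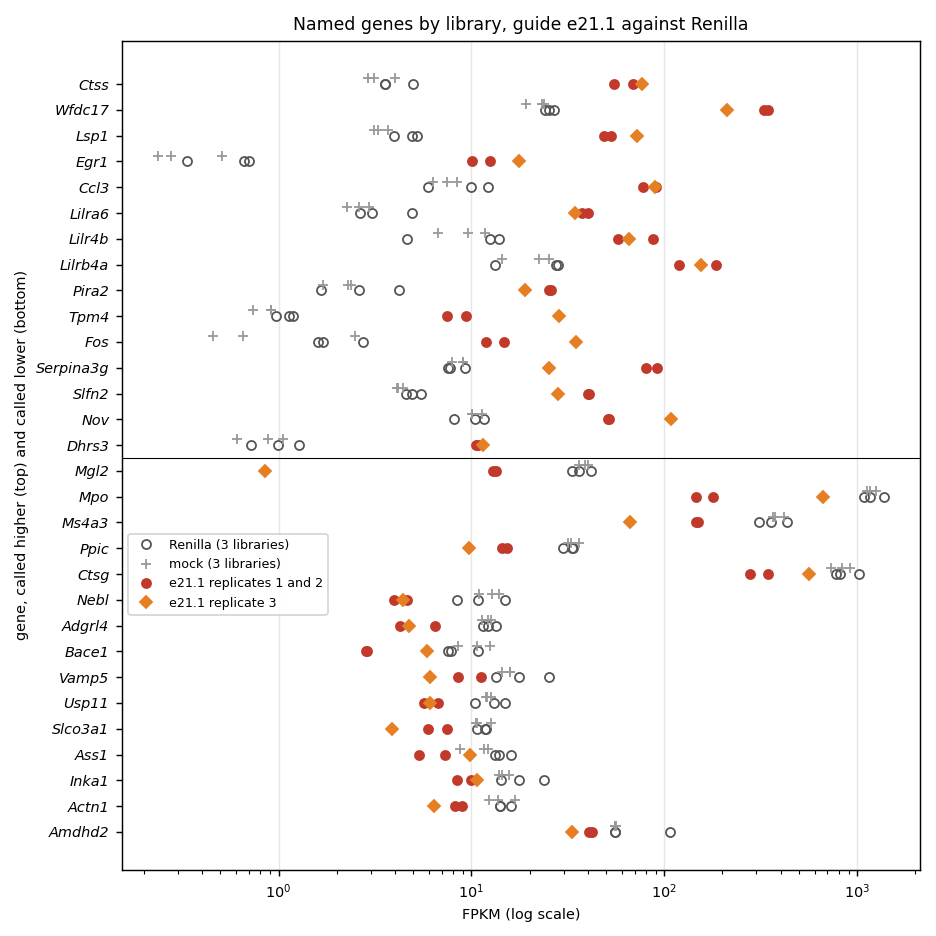
FPKM of the 15 named higher (top) and 15 named lower genes (bottom) in each library, on a log scale, with open circles for Renilla, plus signs for mock, red circles for e21.1 replicates 1 and 2 and orange diamonds for e21.1 replicate 3. The red and orange points lie to the right of the Renilla points among the genes at the top and to the left among those at the bottom, as the choice of genes requires, and replicate 3 departs most from its group in Tpm4, Serpina3g, Mgl2 and Mpo.

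Myeloperoxidase was among the genes that fell most. Mpo (chr11:87793581-87804413, plus strand), the peroxidase of primary granules, stood at 1376, 1158 and 1084 FPKM in Renilla and at 178, 146 and 664 FPKM in e21.1. Replicate 3 kept far more Mpo than replicates 1 and 2. The log2 fold change was -2.21 (SE 0.44, limma adjusted p = 0.0045), and -2.89 (4.5e-05) without replicate 3. Ctsg (chr14:56099881-56102574, minus strand), the granule protease cathepsin G, was at 1019, 811 and 778 FPKM in Renilla and 343, 278 and 562 FPKM in e21.1, a log2 fold change of -1.19 (SE 0.23) and -1.48 without replicate 3. Ms4a3 (chr19:11629496-11640851, minus strand), a membrane protein of granulocyte and monocyte progenitors, fell from 432, 355 and 310 FPKM to 145, 149 and 66.5 FPKM (-1.67, SE 0.24), and here replicate 3 was the lowest.

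The largest fitted decrease among the named genes belonged to Mgl2, a C-type lectin of macrophages and dendritic cells. The size and the call of this decrease depended on replicate 3. Renilla libraries held 41.7, 36.2 and 33.4 FPKM and e21.1 libraries 12.9, 13.4 and 0.854 FPKM. The fitted change of -2.40 (SE 0.66, limma adjusted p = 0.031) became -1.42 (0.12) without replicate 3, and Mgl2 stayed called in 2 of 6 fits that left out a library. Ppic, a peptidyl-prolyl isomerase, fell from 33.7, 33.1 and 30 FPKM to 15.3, 14.5 and 9.69 FPKM (-1.25, SE 0.15) and was called in all 6. Usp11, a deubiquitinase, was among the most even of the lower genes, with 10.4, 13.1 and 14.9 FPKM in Renilla and 5.64, 6.70 and 6.12 FPKM in e21.1 (-0.94, SE 0.12).

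The other named lower genes were Nebl (-1.18, an actin-binding nebulin relative), Adgrl4 (-1.13, an adhesion G protein-coupled receptor), Bace1 (-1.04, a membrane aspartyl protease), Vamp5 (-1.03, a vesicle SNARE), Slco3a1 (-0.91, an organic anion transporter), Ass1 (-0.89, argininosuccinate synthase), Inka1 (-0.85, an inhibitor of the kinase PAK4), Actn1 (-0.84, an actin crosslinker) and Amdhd2 (-0.83, an enzyme of amino sugar breakdown). Bace1 was called in 3 and Adgrl4 and Amdhd2 in 5 of the 6 fits that left out a library, and the rest in all 6. Amdhd2 read 107 FPKM in Renilla replicate 1 but 55.6 FPKM in both other Renilla libraries, against 40.4, 42.2 and 33.3 FPKM in e21.1. Its adjusted p by limma was 0.011, and 0.053 without e21.1 replicate 3. Against mock neither Amdhd2 (0.13) nor Ass1 (0.15) passed limma's adjusted threshold.

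The promoters of the changed genes were read for 4 sequence motifs to show what letters these genes carry upstream. RefSeq promoter windows of 250 bases before the annotated start (GRCm38.p6) matched 8454 tested genes, among them 629 called higher and 229 called lower. Some genes had more than 1 promoter, so the shares below are of 10783 promoters, with 851 of higher and 293 of lower genes. Motifs were searched on both strands. The PU.1 motif GAGGAAGT stood in 2.72% of the promoters of tested genes, 5.64% of those of higher genes and 3.41% of those of lower genes. The AP-1 motif TGANTCA stood in 4.24%, 7.17% and 3.07%, the STAT motif TTCNNNGAA in 5.99%, 7.87% and 8.87%, and the EGR motif GCGTGGGCG in 1.10%, 0.940% and 0.683%. Among promoters of lower genes the matches numbered only 10 for PU.1, 9 for AP-1, 26 for STAT and 2 for EGR. All of these shares are descriptions with no test. A match is a string of letters, and its absence says only that those letters are not in the window.

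Windows of 4 named genes that hold 1 match each are shown, 3 of genes that rose and that of Ctsg, which fell, with the motif in capitals. Lilr4b (chr10:51480362-51480611, plus strand) and Ctsg (chr14:56102575-56102824, minus strand) carry the same STAT match at -104 to -96 and -189 to -181 from the start, although they changed in opposite directions. Pira2 (chr7:3845052-3845301, minus strand) carries a PU.1 match at -148 to -141, and Serpina3g (chr12:104235897-104236146, plus strand) a STAT match at -33 to -25.
Lilr4b: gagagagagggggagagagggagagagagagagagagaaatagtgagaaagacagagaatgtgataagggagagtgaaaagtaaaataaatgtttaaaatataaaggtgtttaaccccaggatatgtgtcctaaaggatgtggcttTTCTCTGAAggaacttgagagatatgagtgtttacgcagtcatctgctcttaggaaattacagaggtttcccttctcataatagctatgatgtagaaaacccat
Pira2: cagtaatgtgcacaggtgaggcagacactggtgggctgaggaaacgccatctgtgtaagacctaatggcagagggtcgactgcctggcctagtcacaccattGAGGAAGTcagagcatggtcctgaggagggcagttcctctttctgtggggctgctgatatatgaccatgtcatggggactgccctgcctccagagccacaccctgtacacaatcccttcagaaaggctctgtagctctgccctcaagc
Serpina3g: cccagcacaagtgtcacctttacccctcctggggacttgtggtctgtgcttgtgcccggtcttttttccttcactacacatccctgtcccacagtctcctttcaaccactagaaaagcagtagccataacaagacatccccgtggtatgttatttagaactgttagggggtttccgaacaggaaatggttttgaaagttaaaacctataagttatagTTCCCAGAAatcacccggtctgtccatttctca
Ctsg: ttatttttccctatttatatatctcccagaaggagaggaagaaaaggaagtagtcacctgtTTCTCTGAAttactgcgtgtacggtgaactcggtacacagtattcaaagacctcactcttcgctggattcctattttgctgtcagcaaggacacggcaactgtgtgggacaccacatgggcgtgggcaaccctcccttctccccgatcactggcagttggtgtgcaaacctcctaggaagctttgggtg

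Most monocyte and macrophage genes rose. Of 20 tested members of this list, 13 were called higher and 0 lower, with a median log2 fold change of 1.02, where 7.06% of all tested genes were called higher and their median was -0.02. Without replicate 3 the count was 14 and the median 1.08, where 5.65% of all tested genes were called higher. These shares, with 2.45% called lower (1.26% without replicate 3), are the background for the counts of every list below. Csf1r, the receptor for the monocyte growth factor CSF1, read 2.04, 2.36 and 2.33 FPKM in Renilla and 16.2, 13.8 and 11.4 FPKM in e21.1 (log2 fold change 2.18, limma adjusted p = 9.6e-06, and 2.30 without replicate 3). Irf8, a transcription factor of the monocyte lineage, read 10.6, 11.1 and 11.4 FPKM against 45.1, 39.9 and 97.4 FPKM, with replicate 3 far above its group (2.24, and 1.85 without it). Adgre1, which encodes the macrophage antigen F4/80, rose from 32.2, 36.1 and 33.4 FPKM to 88.3, 72.7 and 95.3 FPKM (1.30), with replicate 3 the highest. In bulk RNA, more cells that express such genes and more RNA per cell cannot be told apart.

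Not every monocyte gene moved. Itgam (the integrin subunit CD11b) read 40.8, 54.0 and 58.0 FPKM in Renilla and 99.0, 96.9 and 55.7 FPKM in e21.1. Replicate 3 fell among the controls while replicates 1 and 2 stood above them, and limma's adjusted p was 0.11 with all libraries and 0.026 without replicate 3. Cd14 (0.41), Ccr2 (0.25), Tlr4 (0.13) and Fcgr1 (-0.61), all surface receptors of monocytes, were not called either. Without replicate 3, which read 1.08 FPKM of Fcgr1 beside 7.86 and 8.08 FPKM in the other e21.1 libraries, Fcgr1 stood at 0.10 and Tlr4 at -0.12.

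Receptors of the paired immunoglobulin-like and CD300 families had the highest median of the 32 gene lists. Of 11 tested members, 10 were called higher with a median log2 fold change of 2.16, and the count was again 10 without replicate 3 and 9 against mock. Cd300lb, an activating receptor, read 3.13, 4.03 and 4.08 FPKM in Renilla and 15.9, 17.7 and 29.0 FPKM in e21.1 (2.16, SE 0.17). Lilra6 (2.65, 3.07 and 4.94 FPKM against 40.1, 37.6 and 34.3 FPKM) and Pira2 (1.66, 2.60 and 4.21 FPKM against 25.2, 25.9 and 19.0 FPKM) are activating receptors, with log2 fold changes of 3.10 and 2.71. The inhibitory receptor Lilrb4a read 13.2, 27.97 and 27.3 FPKM against 119, 185 and 155 FPKM (2.74), and its neighbour Lilr4b rose by 2.75. Both Lilr4b and Lilrb4a were lowest in Renilla replicate 1. These receptors are near-identical copies, and how reads were divided among Lilra6, Pira2 and Pirb, or between Lilr4b and Lilrb4a, is uncertain.

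Fc receptors and the signalling chain behind them also rose, in 9 of 14 tested members (median 0.72), and in 11 without replicate 3. Tyrobp, the adaptor DAP12 that carries an activation motif for such receptors, stood at 372, 426 and 409 FPKM in Renilla and at 840, 706 and 785 FPKM in e21.1 (0.95, SE 0.14). Fcgr3, a low-affinity receptor for immunoglobulin G, rose by 0.90. Clec5a, a lectin receptor that signals through DAP12, rose by 1.72 although replicate 3 reached only 10.1 FPKM beside 20.9 and 22.1 FPKM in the other e21.1 libraries.

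Lysosomal genes rose by smaller steps, in 14 of 23 tested members (median 0.47), and in 11 without replicate 3. Besides Ctss, they included the membrane protein Lamp2, with 106, 105 and 102 FPKM against 150, 146 and 141 FPKM (0.47, SE 0.08). The Lamp2 groups were narrow and well apart. The protease gene Ctsb rose by 0.62.

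Among chemokines and their receptors 3 of 10 tested members were called higher, and 2 without replicate 3. Ccl6 rose from 19.4, 16.2 and 17.95 FPKM to 104, 101 and 83.8 FPKM (2.37, SE 0.20) beside Ccl3. Ccrl2, a chemerin-binding receptor, was called with all libraries (1.11, limma adjusted p = 0.014) but not without replicate 3 (0.83, 0.073). Ccl4, a close relative of Ccl3, read 9.54, 8.99 and 4.91 FPKM in e21.1 against 1.74, 2.40 and 3.42 FPKM and was not called (0.065).

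Primary granule genes did not move as 1 block. Of 13 tested members, 4 were called lower (Mpo, Ctsg, Ms4a3 and Nkg7, a granule membrane protein) and 2 higher, with a median of -0.60, where 2.45% of all tested genes were called lower. The 2 that rose were Ctsc, the protease that activates granule serine proteases, from 70.5, 77.5 and 71.2 FPKM to 183, 159 and 166 FPKM (1.20, SE 0.12), and Cst7, the cathepsin inhibitor cystatin F (0.78). Nkg7 stood at the threshold and was called in 1 of the 6 fits that left out a library. Without replicate 3, 5 were lower and 2 higher. The neutrophil protease genes Elane and Prtn3 were called only without replicate 3. Elane read 1345, 1060 and 1083 FPKM in Renilla and 509, 462 and 1440 FPKM in e21.1 (-0.73, limma adjusted p = 0.30, and -1.25, 0.047, without replicate 3). Prtn3 stood at -0.61 (0.073), and at -0.86 (0.0085) without replicate 3.

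Of 15 tested late neutrophil genes, 4 were called higher and 1 lower (median 0.86, and 0.51 without replicate 3). Mmp8, neutrophil collagenase, was nearly silent in Renilla at 0.191, 0.369 and 0.273 FPKM and read 7.16, 5.11 and 3.49 FPKM in e21.1 (2.25, SE 0.23). Padi4, the enzyme that citrullinates histones in neutrophils, read 7.32, 7.71 and 25.7 FPKM against 2.12, 2.43 and 2.48 FPKM (1.90, and 1.35 without replicate 3). Chil3, a chitinase-like protein, fell from 6.77, 6.20 and 7.53 FPKM to 3.10, 3.13 and 3.27 FPKM (-0.91, SE 0.20), and was not called against mock (limma adjusted p = 0.078). The acute-phase gene Hp rose by 0.84 but was called in only 3 of the 6 fits that left out a library, and the secondary granule genes Camp (0.94), Ngp (1.37) and Lcn2 (1.32) were not called. Without replicate 3 these stood at -0.12, 0.89 and 0.72.

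Of 14 tested transcription factors of myeloid fate, 6 were called higher and 0 lower, with or without replicate 3 (median 0.16). Irf5 rose from 3.60, 4.51 and 5.03 FPKM to 17.1, 16.4 and 21.99 FPKM (1.86, SE 0.16). Id2, an inhibitor of helix-loop-helix factors, rose from 0.4996, 0.767 and 0.925 FPKM to 4.22, 3.85 and 3.58 FPKM (1.5, SE 0.13), and the nuclear receptor Nr4a1 from 0.649, 1.27 and 1.12 FPKM to 5.23, 6.59 and 5.04 FPKM (1.72, SE 0.16). All 4 named members, Egr1 included, held their call in each fit that left out a library.

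Genes of the interleukin-3 and STAT5 route, which include its receptor chains and kinase as well as its targets, rose in 12 of 21 tested members, with a median of 0.52 and 0 lower, and in 10 without replicate 3. Cish, a feedback inhibitor induced by STAT5, read 17.6, 27.0 and 20.9 FPKM in Renilla and 78.5, 79.0 and 132 FPKM in e21.1 (2.07, SE 0.22, and 1.83 without replicate 3). Osm, a cytokine gene induced by STAT5, rose from 6.86, 5.92 and 6.76 FPKM to 22.5, 20.4 and 26.9 FPKM (1.68, SE 0.15). Csf2rb (chr15:78325752-78353847, plus strand), the common receptor chain for interleukin-3, interleukin-5 and GM-CSF, rose from 41.1, 50.4 and 47.9 FPKM to 119, 130 and 82.0 FPKM (1.21, limma adjusted p = 0.00031), with replicate 3 lowest of the e21.1 libraries. Its paralog Csf2rb2, the chain specific to interleukin-3 in mice, rose by 1.70, and reads between the 2 copies may be misassigned. The interleukin-2 receptor chain Il2ra rose by 1.44 from at most 0.322 FPKM in Renilla. The receptor chain genes Il3ra (0.36) and Csf2ra (0.09) and the gene Stat5a (-0.16) were not called. Nor were Pim1 (0.52), Pim2 (0.39), Id1 (0.26), Ccnd2 (0.16), Bcl2l1 (0.02) and Myc (-0.01), though Pim2 was called without replicate 3 (0.66).

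Immediate-early and feedback genes of the RAS-MAPK route were called higher in 9 of 18 tested members (median 0.85), and in 7 without replicate 3 (median 0.60). Beside Egr1 and Fos, Dusp5, a phosphatase of ERK, rose from 1.74, 1.68 and 1.57 FPKM to 6.14, 4.96 and 6.67 FPKM (1.37, SE 0.14). Ier3, an early response gene, rose from 6.24, 5.24 and 6.39 FPKM to 21.7, 19.3 and 36.1 FPKM (1.89, SE 0.19). The feedback genes Spry2 (0.13), Spred1 (0.13), Spred2 (0.14) and Dusp2 (0.20) were not called. Nor were Jun (1.06), Ier2 (0.66), Etv5 (0.55), Phlda1 (0.41) and Myc (-0.01). The mean level of the list stood 0.88, 0.80 and 1.58 log2 units above the Renilla mean in e21.1 replicates 1, 2 and 3, so that replicate 3 lay furthest out.

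Smaller inflammatory groups followed. In the NF-kB list 5 of 13 tested members were called higher (4 without replicate 3), led by the feedback inhibitors Tnfaip3 (1.18) and Zfp36 (1.44), with Icam1 (0.46) and Tnf (0.86). Icam1 was not called against mock (limma adjusted p = 0.07), and Tnf was called in 4 of the 6 fits that left out a library. In the interferon list 7 of 13 were called higher with or without replicate 3. Zbp1, a sensor of Z-form nucleic acid, rose from 0.206, 0.356 and 0.154 FPKM to 3.87, 2.64 and 4.38 FPKM (1.89, SE 0.16), and Ifi27l2a from 2.54, 1.53 and 2.27 FPKM to 13.5, 11.97 and 12.03 FPKM (2.13, SE 0.29). In the antigen presentation list 6 of 14 were called higher (7 without replicate 3), among them the class I genes H2-T23 (1.28), H2-T22 (0.55) and H2-K1 (0.49). Class I genes are close copies of each other, so their single values are uncertain.

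**Figure D3:**
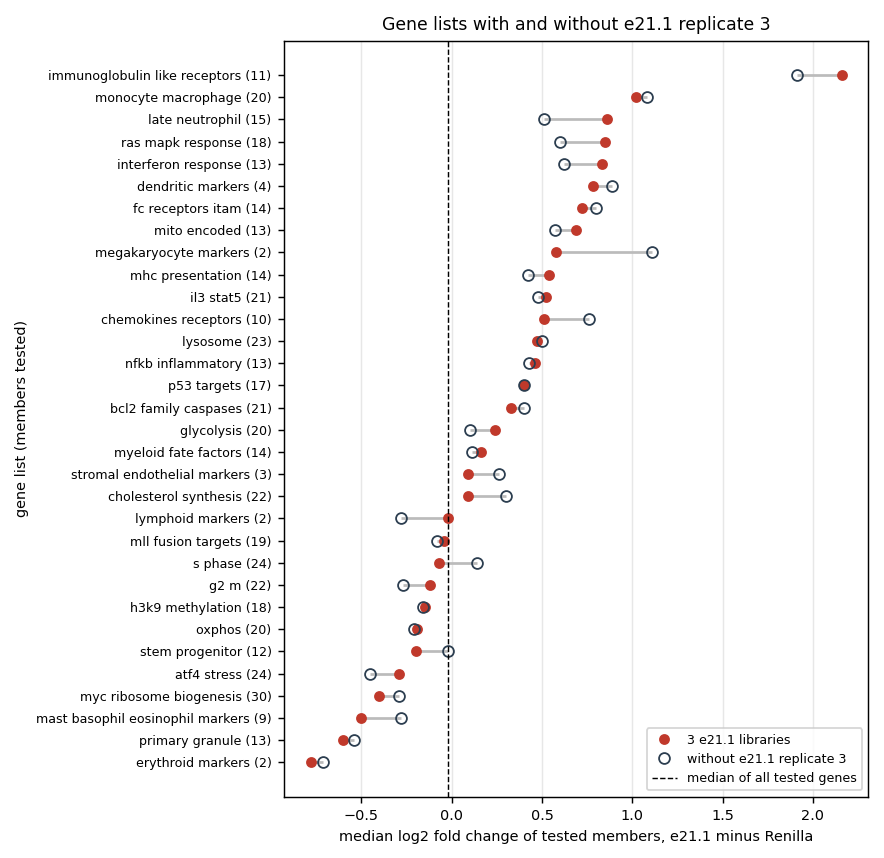
Median log2 fold change of the tested members of each gene list, e21.1 minus Renilla, with all 3 e21.1 libraries (red) and without e21.1 replicate 3 (open circles), and the number of tested members in brackets. The immunoglobulin-like receptors (2.16) and monocyte genes (1.02) lie furthest right, primary granule genes (-0.60) lie far left, and the dashed line marks the median of all tested genes (-0.02).

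In a list of genes tied to the MLL fusion, its targets with cofactors such as Men1 and Dot1l and Jmjd1c itself, 1 of 19 tested members was called higher and 0 lower, with a median of -0.04. Over all tested genes 7.06% were called higher, so this count is near the background. Hoxa9 read 64.2, 99.2 and 108 FPKM in Renilla and 88.1, 79.7 and 119 FPKM in e21.1, and Meis1 read 28.8, 38.7 and 38.3 FPKM against 33.0, 35.4 and 35.0 FPKM. Every Meis1 value of e21.1 lay within the Renilla range, while Hoxa9 in e21.1 replicate 3 lay above it, with log2 fold changes of 0.09 (SE 0.17) for Hoxa9 and -0.02 (SE 0.10) for Meis1, though the Hoxa9 value changes sign without e21.1 replicate 3 (-0.08). Myc stood at 104, 106 and 115 FPKM against 104, 89.2 and 134 FPKM, and Myb at 190, 262 and 244 FPKM against 181, 223 and 110 FPKM (-0.48, limma adjusted p = 0.20). The exception was the survival gene Bcl2, which rose from 5.40, 4.76 and 5.22 FPKM to 8.81, 8.21 and 9.72 FPKM (0.69, SE 0.11).

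Among 12 tested stem and progenitor genes 1 rose and 2 fell, where 7.06% of all tested genes were called higher and 2.45% lower. The count that rose is near the background. Kit, the stem cell factor receptor, read 47.3, 50.8 and 45.2 FPKM in Renilla and 30.9, 35.1 and 17.7 FPKM in e21.1 (-0.81, limma adjusted p = 0.017, and 0.065 without replicate 3). Muc13, a membrane mucin, fell by 0.62 on the log2 scale and was called in 1 of the 6 fits that left out a library, while Cd93, a lectin-like receptor, rose from 49.2, 51.5 and 47.3 FPKM to 101, 87.4 and 129 FPKM (1.07, SE 0.19). Among 18 tested genes of H3K9 methylation 2 were called lower, the methyltransferase gene Suv39h2 (15.4, 12.8 and 12.9 FPKM against 9.17, 9.39 and 8.81 FPKM, -0.53) and the corepressor gene Trim28 (-0.34), of which only Suv39h2 was called without replicate 3 or against mock. The paralogs of Jmjd1c, Kdm3a (-0.00) and Kdm3b (-0.14), were not called.

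Part of the cell growth genes fell. All 30 tested genes of MYC and ribosome biogenesis had lower means in e21.1, where 5397 of the 11550 tested genes had higher ones, and 9 of the 30 were called lower (median -0.40), where 2.45% of all tested genes were called lower. Without replicate 3, only 3 were called and the median was -0.29, and against mock 5 were called, also with a median of -0.29. Renilla replicate 1 was the highest control, with a summed level of 7430 FPKM beside 5550 and 5360 FPKM, against 5000, 4670 and 3850 FPKM in e21.1. Wdr43, a factor of ribosomal RNA processing, fell from 62.7, 57.7 and 58.3 FPKM to 48.7, 45.3 and 38.0 FPKM (-0.43, SE 0.09), and Wdr12 fell by 0.59 on the log2 scale. Of the 24 serine, one-carbon and ATF4 stress genes 2 were lower (Shmt2, -0.41, and Psat1, -0.48, enzymes of serine and glycine synthesis) and 3 without replicate 3. Psat1 was called in 3 of the 6 fits that left out a library and not against mock (limma adjusted p = 0.12).

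Cell cycle genes gave no calls. By limma 0 of 24 S-phase and 0 of 22 G2/M genes passed, with or without replicate 3, but replicate 3 set itself apart in both. The mean level of the S-phase list stood at 0.26, 0.05 and -0.58 log2 units from the Renilla mean in e21.1 replicates 1, 2 and 3, and that of the G2/M list at -0.29, -0.24 and 0.21. Replicate 3 thus lay on the other side from replicates 1 and 2 in each list. Tyms, thymidylate synthase, read 149, 122 and 65.6 FPKM in e21.1 against 161, 123.4 and 116 FPKM in Renilla (-0.31, limma adjusted p = 0.46).

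Growth arrest and survival genes of the p53 route rose in 7 of 17 tested members, with or without replicate 3 (median 0.40 in both). Cdkn1a (chr17:29090976-29100727, plus strand), the cell cycle inhibitor p21, read 71.5, 75.8 and 64.3 FPKM in Renilla and 142, 157 and 135 FPKM in e21.1 (1.03, SE 0.13, limma adjusted p = 8e-05). Trp53inp1, a p53-induced stress protein, rose from 1.59, 3.17 and 2.48 FPKM to 7.84, 9.84 and 9.36 FPKM (1.57, SE 0.16), and the death receptor gene Fas by 1.11. In Cdkn1a and Trp53inp1 replicate 3 lay close to the other e21.1 libraries. In the BCL2 and caspase list 7 of 21 were called higher with or without replicate 3, both pro-death members such as Bmf (1.11) and Casp1 (0.94) and pro-survival members such as Bcl2 and Mcl1, the latter from 69.0, 63.9 and 65.3 FPKM to 103, 88.9 and 86.1 FPKM (0.48, SE 0.09).

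Metabolic lists showed where replicate 3 differed. Among 20 glycolysis genes 4 were called higher, where 7.06% of all tested genes were. Without replicate 3 only 1 gene was, near the background of 5.65%. Slc2a3, a glucose transporter, was that gene, with 6.38, 8.95 and 36.1 FPKM in e21.1 against 1.28, 2.56 and 2.21 FPKM in Renilla (2.24, and 1.53 without replicate 3). The mean of the cholesterol synthesis list stood 0.47 and 0.16 log2 units above the Renilla mean in replicates 1 and 2. In replicate 3 it stood at -0.41. Of the 22 genes in this list 1 was called higher, not above the share of 7.06% over all tested genes. That gene was Sc5d (0.55, called in 3 of the 6 fits that left out a library). The ATF4 list lay at -0.59 and -0.43 in replicates 1 and 2 but at 0.25 in replicate 3. Of 20 nuclear genes of oxidative phosphorylation limma called 0, with a median of -0.19.

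**Figure D4:**
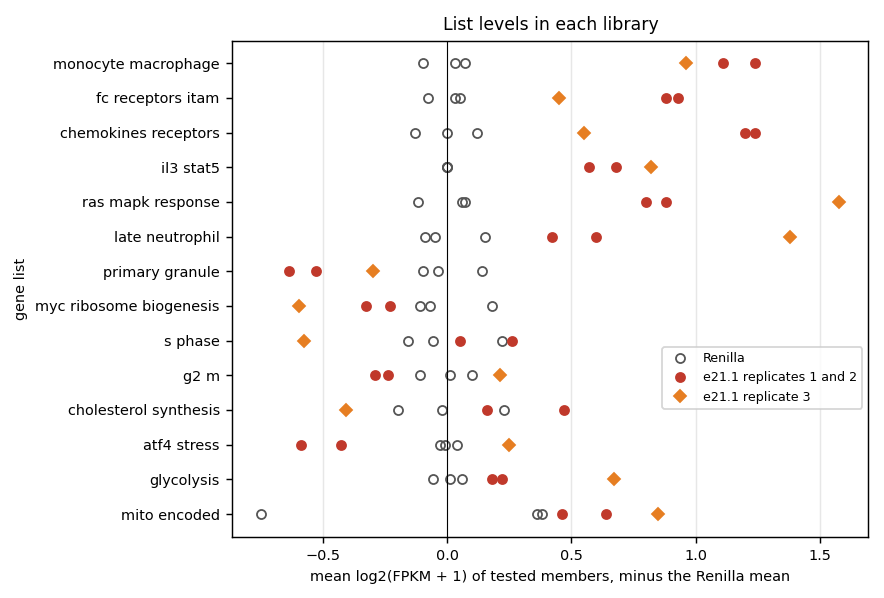
Mean log2(FPKM + 1) of the tested members of 14 gene lists in each library, minus the mean of the 3 Renilla libraries, with open circles for Renilla, red circles for e21.1 replicates 1 and 2 and orange diamonds for e21.1 replicate 3. All e21.1 libraries lie right of Renilla for the monocyte list (1.24, 1.11 and 0.96), while replicate 3 lies on the other side of the line from replicates 1 and 2 for the G2/M, cholesterol and ATF4 lists.

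The single genes by which replicate 3 differed most from the other e21.1 libraries are given as a description. Mamdc2 read 0.587, 0.785 and 41.0 FPKM in e21.1 replicates 1, 2 and 3, Myl10 (a myosin light chain) 4.37, 4.64 and 52.1 FPKM, Camp (the secondary granule protein cathelicidin) 4, 5.03 and 48.8 FPKM and Gpx3 (a glutathione peroxidase) 14.3, 15 and 117 FPKM. On the low side the chemokine gene Ccl9 read 94.2, 73.0 and 2.5 FPKM. Whether depth, or any other property of the library, has a part in these values was not tested.

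Mitochondrially encoded genes had a high median log2 fold change (0.69) with 0 of 13 called by limma. Their mean level in Renilla replicate 1 stood 0.75 log2 units below the Renilla mean, and both other Renilla libraries stood 0.36 and 0.38 above it, against 0.64, 0.46 and 0.85 in e21.1. For instance mt-Nd2 read 450, 1252 and 1310 FPKM in Renilla and 1804, 1422 and 1817 FPKM in e21.1. Renilla replicate 1 was the low library.

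Markers of other blood and stromal cells were mostly at or near 0. Only 2 of 10 erythroid, 2 of 10 megakaryocyte, 2 of 14 lymphoid, 4 of 12 dendritic and 3 of 15 stromal or endothelial markers in the table passed the level filter. Alas2 and Tek were listed at 0 in all 6 libraries, and Pax5, Cdh5 and Epcam at 0.0169 FPKM or less. Of these markers Itgb3 (an integrin chain, 1.71), Pecam1 (CD31, 0.75) and Id2 were called higher, while the platelet genes Ppbp, Gp1ba and Treml1 stayed at 0.0487 FPKM or less. Of 9 tested mast cell, basophil and eosinophil markers limma called 0 against Renilla and 1 lower against mock, where 1.35% of all tested genes were lower. The summed level of 12 such markers, those below the level filter included, was 118 to 146 FPKM in Renilla and 43.2 to 102 FPKM in e21.1. This sum was lowest in e21.1 replicate 3, where Hdc (histidine decarboxylase) read 9.22 FPKM beside 45.3 and 34.8 FPKM. The summed dendritic markers were 45.4 to 52.6 FPKM in Renilla and 70.7 to 95.6 FPKM in e21.1, with Zbtb46, Xcr1 and Siglech at 0.222 FPKM or less throughout. The part of such cells in the other results was not tested.

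Guide e21.1 had the highest count of called genes of the 4 guides against the shared Renilla libraries, where e12.3 gave 370 (3.2%), e12.4 gave 819 (7.09%) and e20.1 gave 656 (5.68%). Without e21.1 replicate 3 its count of 798 was below that of e12.4, but it then rests on fewer libraries than the count of e12.4. Without replicate 3 of both e21.1 and e12.3 the e21.1 count was 1243, and the other guides were not counted in that setting. Tested directly against the 3 other guides, however, e21.1 differed by 0 genes at an adjusted p of 0.05 by limma. Before adjustment 344 genes had p under 0.05, where 578 are expected with no change, and the lowest adjusted p was 0.99. Without e21.1 replicate 3 the count was again 0, with 129 genes unadjusted. With no filter on low values limma called 2 genes, and with array quality weights 1. The higher count against Renilla is not a test of a difference between guides.

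The levels side by side show the same order of size. Ctss averaged 66.8 ± 11.0 FPKM (SD, n = 3) in e21.1, 39.3 ± 13.4 in e12.3, 44.8 ± 3.71 in e12.4 and 54.2 ± 10.2 in e20.1, against 4.04 ± 0.808 in Renilla and 3.35 ± 0.589 in mock. For Ctss the log2 difference of e21.1 from the other guides was 0.55 (SE 0.17, limma adjusted p = 0.99). Egr1 averaged 13.4 ± 3.84 FPKM in e21.1 (SD, n = 3) and 4.78 ± 0.428, 8.57 ± 3.85 and 7.94 ± 1.72 in e12.3, e12.4 and e20.1. Its single libraries overlapped, since e12.4 replicate 1 reached 12.9 FPKM and e21.1 replicate 2 only 10.1 FPKM. For Mpo, e21.1 replicates 1 and 2 (178 and 146 FPKM) lay near the e12.4 libraries (182, 138 and 133 FPKM), and e21.1 replicate 3 (664 FPKM) lay between them and e12.3 replicate 3 (1025 FPKM).

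**Figure D5:**
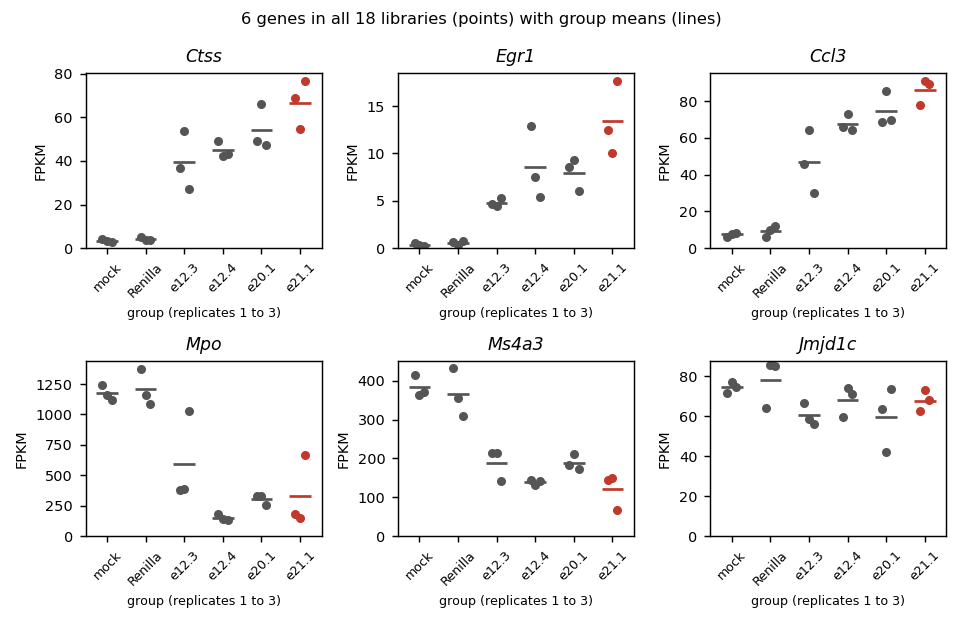
FPKM of Ctss, Egr1, Ccl3, Mpo, Ms4a3 and Jmjd1c in all 18 libraries, with 1 point a library in the order of replicates 1 to 3, a line at each group mean and e21.1 in red, on linear axes that start at 0. The 4 Jmjd1c guides stand apart from mock and Renilla in Ctss, Egr1, Ccl3 and Ms4a3, e21.1 replicate 3 (664 FPKM) and e12.3 replicate 3 (1025 FPKM) keep high Mpo, and Jmjd1c in e21.1 overlaps both Renilla and mock.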

How the data were processed

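Poly(A) RNA libraries were read as FPKM values deposited by the authors, in 1 table of 23899 genes and 18 libraries. Per the submitters' processing notes, bcl2fastq 2.22.0.422, Salmon 0.13.0, R 3.5.3 and DESeq2 1.22.1 were used with mm10. FPKM are not counts, so limma-trend (limma 3.58.1, R 4.3.3) was run on log2(FPKM + 1) over all 6 groups, without covariates and with 12 residual degrees of freedom, after a filter of mean FPKM of at least 1. P-values were adjusted by Benjamini-Hochberg over all 11550 tested genes, and called means an adjusted p under 0.05. The scripts were tested on simulated data.

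Values in the 15 tables of single libraries matched the joint table within 3.3e-06 FPKM. Depth was estimated from 1473 genes with 1 transcript of at least 2000 bases. For each library the depth was chosen that put values of up to 3 reads closest to whole reads. At the chosen depths at least 95.6% of these values lay within 10% of a whole read, where an even spread gives 20.0%. The choice itself raises this share, so it is a description and not an independent check. Library depths were 20.7 to 181.9 M reads. FPKM that stand for only a few reads are therefore coarse, but no count test was made, since most genes hold several transcripts. For a transcript of 2000 bases, 1 FPKM stood for 61 to 150 reads in the e21.1 and Renilla libraries. GENCODE vM21 (GRCm38) held 98.92% of the symbols and gave the coordinates. Promoter sequences are from RefSeq.

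The comparison, the 32 gene lists and the genes given by name were chosen with earlier results of these data known. Named are the 15 called genes of largest change in each direction (mean FPKM of at least 5, groups without overlap, gene models without a symbol skipped), up to 4 members of smallest p per list, Jmjd1c and 9 others always, and 5 genes each way by which e21.1 replicate 3 differs. A few genes that this rule names are not reported here. Other genes given with their lists were chosen after their values were seen. Alternatives were another pseudocount, other filters, only the groups compared, a replicate block, array weights, upper-quartile scaling, mock as control and each library left out. Replicate 3 of e21.1 and replicate 3 of e12.3 were also left out together.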

Additional observations from a re-analysis of the deposited data

How the results depend on the processing

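Against 1098 called genes (815 higher, 283 lower), the fit to only the groups compared called 332 (312 higher, 20 lower), array quality weights 2641 (1559 higher, 1082 lower), and mock as control 839 (156 lower). With 1 library left out, 779 to 1026 genes were called, 612 to 782 higher and 139 to 306 lower. A pseudocount of 0.1 gave 1101, no filter 1073, the stricter filter 908 and upper-quartile scaling 1105. Deviations of same-numbered e21.1 and Renilla libraries correlated at 0.08, 0.03 and -0.04, while a replicate block gave 1652 calls (583 lower). These values do not settle whether replicate numbers pair the samples. For Jmjd1c the block left the log2 difference at -0.19 (exact sign-flip p = 0.25, the smallest of 8 arrangements), array weights gave -0.30, and it ran from -0.33 to -0.13 with 1 library left out. Against the other guides, no filter gave 2 calls (1 higher, 1 lower), array weights 1 (1 lower), and leaving out a library 0. The cause of these shifts was not tested, except that fewer libraries leave fewer degrees of freedom. Of 97 named called genes, 57 passed in every setting and 0 changed sign. Uncalled genes did change sign, some with main values near 0 and others further from it, such as Itga2b (-0.55). Array weights gave Fen1 0.03, Hoxa9 -0.23, Itga2b 0.14 and Tyms 0.04. Without replicate 3 of both e21.1 and e12.3, Hoxa9 was -0.08, Itga2b 0.27, Pdgfrb 0.08 and Tyms 0.03. Myc was 0.00 with upper-quartile scaling, 0.03 against mock and 0.01 against Renilla and mock. With 1 library left out, the values ran from -0.03 to 0.26 for Acta2, -0.07 to 0.37 for Cd3d, -0.14 to 0.24 for Hoxa9, -0.97 to 0.27 for Itga2b, -0.73 to 0.11 for Lck, -0.15 to 0.05 for Meis1, -0.17 to 0.12 for Myc, -0.25 to 0.08 for Pdgfrb and -0.56 to 0.03 for Tyms. With 3 libraries a group, small shifts were not resolved.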
